A study of Mus musculus with 4 samples.

Results

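The 10 genes described here encode transcription factors of the lateral plate mesoderm and the limb mesenchyme: Hand1, Hand2, Twist1, Isl1, Pitx1, Prrx1, Prrx2, Foxf1, Osr1 and Gata4. They were taken by name from the table of 53397 genes, and all 10 were found there, each once. RNA had been isolated from pooled posterior epiblasts, the progenitor region at the caudal end of the embryo. The embryos were wild type (WT) mice collected at stage E7.5 or at stage E8.5. Each stage has 2 libraries, which the study's methods call biological replicates. Neither stage was given an agent or carried an altered allele, as far as the labels say. The number of embryos in a pool, their strain and their sex are not given in the sources used here (the tissue is defined by its position, so the cell types in it can differ between the stages).

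The lateral plate is the mesoderm that lies beside the paraxial and intermediate mesoderm. It splits into a splanchnic layer, which surrounds the gut and contributes to the heart, and a somatic layer, from which the body wall and the limb buds grow. Cells of the posterior primitive streak give rise to the lateral plate and, earlier and further back, to the extraembryonic mesoderm of the allantois, amnion and yolk sac. BMP signals favour these posterior and lateral fates, Foxf1 acts downstream of Hedgehog and BMP signals in the splanchnic layer, and Gata4 is also a factor of the endoderm that lines the early embryo.

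Among the 10 factors, Osr1, Pitx1 and Prrx1 rose most at E8.5, Foxf1 and Hand2 rose by less, Gata4 fell steeply and Hand1 fell moderately. Isl1, Twist1 and Prrx2 did not pass the test. The level of a gene is given as its normalised count, the number of its reads scaled by the authors to the size of the library, so that the values of a library sum to between 966708 and 1074160. A fold change is that of E8.5 against E7.5 on the log2 scale after 1 was added to each normalised count, which understates the change of genes with few reads. Rose and fell are used of genes whose adjusted p in limma's moderated test was under 0.05, with the Benjamini-Hochberg adjustment over the 13903 genes with a normalised count of at least 1 in at least 2 libraries. All 10 factors passed this minimum. By this test 5 of the 10 rose, where 25.6% of all genes tested rose, and 2 of the 10 fell, where 26.4% of all genes fell. In either direction 52.0% of all genes were called. When a log2 change of 1 or more was asked for as well, 3 factors rose and 1 fell, against 4.48% and 6.35% of all genes. A test of whether the change exceeded 1 on the log2 scale (limma's treat) again called 3 higher and 1 lower, against 2.01% and 2.74% of all genes. The median log2 fold change was 0.47 over the 10 factors and -0.0074 over all genes tested. For 8 of the 10 factors the libraries of one stage all lay above those of the other, as they did for 76.3% of all genes. Permuting 2 libraries against 2 exactly cannot give any gene a p under 0.33, so each call leans on a spread that limma pools across genes. In pooled tissue, fewer cells that express a gene and less RNA per cell cannot be told apart.

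**Figure D1:**
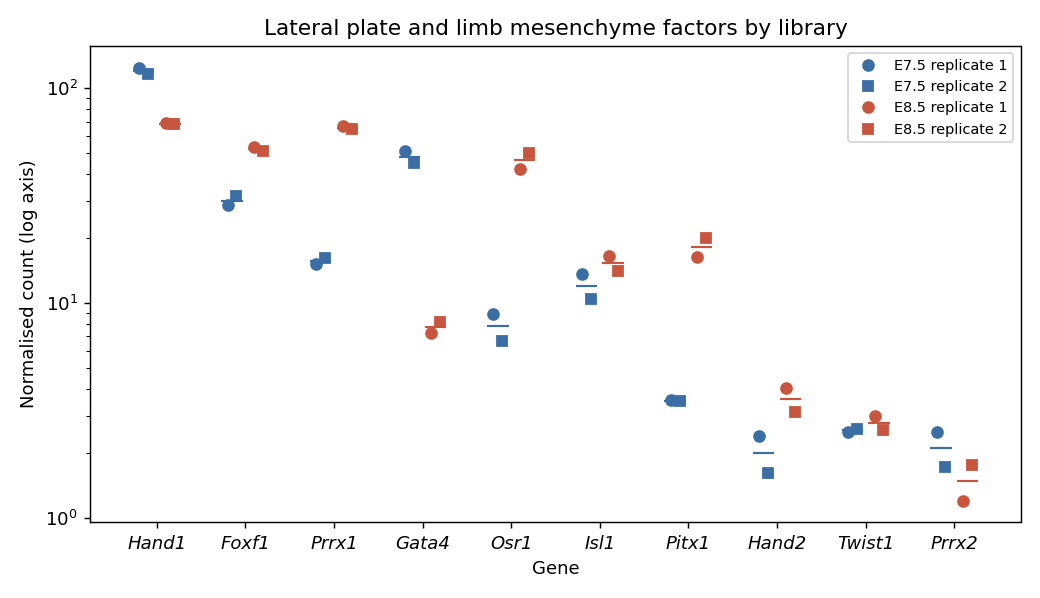
Normalised count (y axis, log scale) of the 10 factors (x axis) in each library, with E7.5 in blue and E8.5 in red, circles for replicate 1, squares for replicate 2 and short lines for the stage means. Osr1, Pitx1 and Prrx1 lie clearly higher in both E8.5 libraries, Gata4 and Hand1 lower, and the symbols of Twist1 and Prrx2 overlap between the stages.

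**Figure D2:**
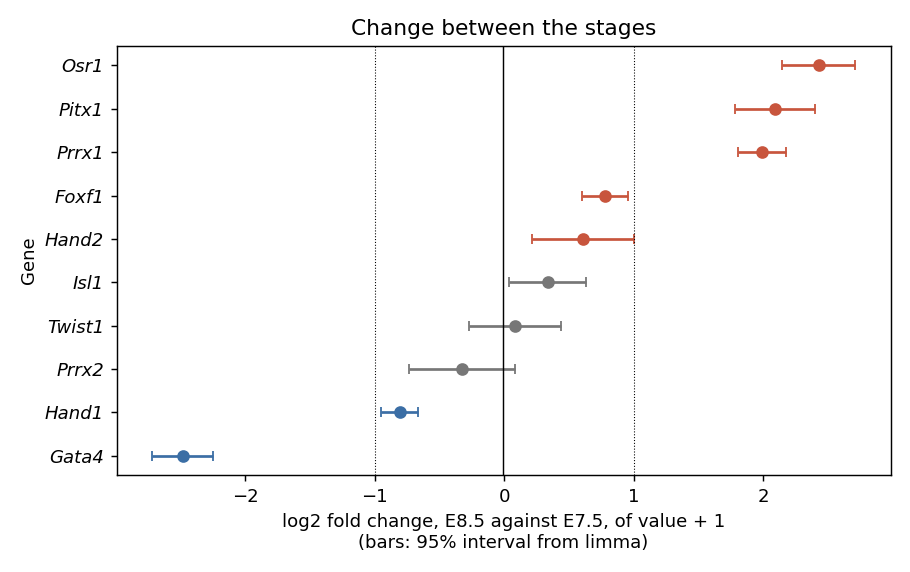
log2 fold change of E8.5 against E7.5 (x axis, of the normalised count plus 1) of each factor (y axis), with bars for the 95% interval from limma, red for genes that rose, blue for genes that fell and grey for genes that did not pass the test. The solid line is the median of all genes tested (-0.0074) and the dotted lines mark a fold change of 1 in either direction. The values run from -2.49 for Gata4 to 2.43 for Osr1.

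The promoter windows of 4 genes that the results turn on are shown here to set the related genes Prrx1 and Prrx2 side by side, and to show the region that Hand2 shares with its antisense transcript and the start of Fendrr, the long noncoding RNA next to Foxf1. They run from 250 bases before to 50 bases after the start of the gene in RefSeq on GRCm38.p6, the build of the deposited alignments (mm10), and are written 5′ to 3′ on the strand of the gene. Of the 10 factors, 5 have such a window in the RefSeq promoter table (Hand2, Twist1, Isl1, Prrx1 and Prrx2). The Hand2 window is chr8:57320733-57321032 on the plus strand, that of Prrx1 is chr1:163313601-163313900 on the minus strand, that of Prrx2 is chr2:30845117-30845416 on the plus strand and that of Fendrr is chr8:121083061-121083360 on the minus strand. Capitals mark matches, on either strand, to CANNTG, the E-box that basic helix-loop-helix proteins bind, to TAATTA, a core of many homeodomain sites, to AGATAA, a form of the GATA site, or to GTAAACA, a forkhead site.
Hand2: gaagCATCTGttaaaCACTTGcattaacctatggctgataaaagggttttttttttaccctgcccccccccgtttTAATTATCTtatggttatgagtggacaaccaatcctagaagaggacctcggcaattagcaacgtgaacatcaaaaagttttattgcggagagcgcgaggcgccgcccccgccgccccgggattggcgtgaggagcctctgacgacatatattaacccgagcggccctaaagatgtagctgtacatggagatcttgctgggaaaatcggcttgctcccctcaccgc
Prrx1: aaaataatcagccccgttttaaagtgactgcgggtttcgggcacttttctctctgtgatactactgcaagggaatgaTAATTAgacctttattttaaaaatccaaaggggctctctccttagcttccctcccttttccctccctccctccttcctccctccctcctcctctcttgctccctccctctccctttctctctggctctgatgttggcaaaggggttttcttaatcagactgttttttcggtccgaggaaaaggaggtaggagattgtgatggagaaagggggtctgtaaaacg
Prrx2: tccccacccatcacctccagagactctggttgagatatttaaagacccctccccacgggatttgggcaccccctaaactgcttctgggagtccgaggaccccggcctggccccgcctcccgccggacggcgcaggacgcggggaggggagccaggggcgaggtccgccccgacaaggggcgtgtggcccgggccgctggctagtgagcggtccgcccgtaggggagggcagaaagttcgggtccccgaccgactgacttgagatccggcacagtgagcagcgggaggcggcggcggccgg
Fendrr: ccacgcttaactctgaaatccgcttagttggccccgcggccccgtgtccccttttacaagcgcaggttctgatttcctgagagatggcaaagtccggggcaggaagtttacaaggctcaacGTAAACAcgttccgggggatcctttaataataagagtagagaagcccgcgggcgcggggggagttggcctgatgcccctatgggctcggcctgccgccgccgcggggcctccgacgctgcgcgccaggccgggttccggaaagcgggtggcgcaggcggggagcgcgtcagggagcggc
Hand2 has 2 E-boxes and a TAATTA that overlaps an AGATAA on the other strand. Prrx1 has 1 TAATTA and Prrx2 has none of the 4 motifs. Fendrr has 1 GTAAACA. Of 32851 promoter windows of this length, 72.3% hold CANNTG, 5.29% hold TAATTA, 11.2% hold AGATAA and 3.65% hold GTAAACA. The GC content was 47.7% for Prrx1 and 70.3% for Prrx2, and the Prrx2 window lies inside the longer gene span that GENCODE vM21 gives. A match describes the letters only.

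Hand1, Hand2 and Twist1 are basic helix-loop-helix factors, and the 2 Hand genes went in opposite directions. Hand1, which is needed in the lateral and extraembryonic mesoderm and in the trophoblast, lies on chromosome 11 (57828705 to 57832818). Normalised counts of Hand1 were 125 and 116 in the E7.5 libraries and 68.6 and 68.2 in the E8.5 libraries. Both E8.5 libraries were thus below both E7.5 libraries, and they differed from each other by less than the E7.5 pair. The mean fell from 121 ± 5.82 to 68.4 ± 0.244 (n = 2 libraries per stage, SD), a change of -0.81 on the log2 scale (limma adjusted p = 1.1e-07, standard error 0.07). Hand1 rested on 2219 and 2297 reads at E7.5 and on 1307 in each E8.5 library.

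Hand2, the factor of heart, limb and branchial arch mesenchyme, lies on chromosome 8 (57320983 to 57324633) and was a low gene at both stages. Its normalised count was 2.42 and 1.62 at E7.5, then 4.04 and 3.13 at E8.5, from 43, 32, 77 and 60 reads. The stages did not overlap, and the mean rose from 2.02 ± 0.561 to 3.59 ± 0.642 (n = 2 per stage, SD), a change of 0.61 on the log2 scale (limma adjusted p = 0.013, standard error 0.19). The call was lost without E7.5 replicate 2 (0.42, adjusted p = 0.133), without E8.5 replicate 1 (0.47, adjusted p = 0.117), with DESeq2 (adjusted p = 0.0819) and with no filter on low values (adjusted p = 0.144). Hand2 shares 461 of its 2351 exonic bases with the antisense transcript Hand2os1, and these libraries do not keep the strand. Hand2os1, which the table lists under the symbol AV026068, rose from 2.59 and 2.69 to 11.0 and 10.8, a change of 1.71 on the log2 scale (limma adjusted p = 2.2e-07, standard error 0.15). The starts of the 2 genes lie 124 bases apart on opposite strands, so that 223 bases of their RefSeq promoter windows are the same. Reads over the shared exonic bases can come from either gene, and their part in the Hand2 value was not tested.

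Twist1, a regulator of mesenchyme and of epithelial to mesenchymal transition, lies on chromosome 12 (33957671 to 33959829). It was read at 2.53 and 2.59 at E7.5, then at 2.99 and 2.56 at E8.5, from 45, 51, 57 and 49 reads. The lower E8.5 library lay between the E7.5 libraries. The log2 fold change was 0.083, with a 95% interval from -0.27 to 0.44 (limma adjusted p = 0.70), an interval that leaves out a log2 change of 1 in either direction but not every smaller one. The value ranged from 0.00022 to 0.17 with 1 library left out. Twist1 was not called under any of the 14 alternatives that gave it a value.

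Pitx1, Prrx1, Prrx2 and Isl1 carry a homeodomain. Pitx1, which specifies hindlimb character and is also found in the posterior lateral plate, lies on chromosome 13 (55825051 to 55836192). Its normalised count was 3.54 and 3.50 at E7.5, then 16.5 and 20.2 at E8.5. Both E8.5 libraries were far above both E7.5 libraries, and the E8.5 pair was spread more widely. The mean rose from 3.52 ± 0.0293 to 18.3 ± 2.64 (n = 2 per stage, SD), 5.21 times the E7.5 mean, with a change of 2.09 on the log2 scale (limma adjusted p = 1.7e-08, standard error 0.15). Of the 13903 genes tested, 88 had a larger log2 fold change. Pitx1 shares 165 of its exonic bases with the antisense gene Gm47071, which had 16 and 11 reads at E7.5, then 100 and 79 at E8.5, against 63, 69, 314 and 387 for Pitx1. What part of the Pitx1 reads comes from Gm47071 was not tested.

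Prrx1 and Prrx2 are close relatives that act together in limb and facial mesenchyme, and the difference between their changes was not tested. Prrx1, a marker of somatic lateral plate and limb bud mesenchyme, lies on chromosome 1 (163245119 to 163313710). Normalised counts of Prrx1 were 15.3 and 16.2 at E7.5, then 66.7 and 64.3 at E8.5, with little spread within a stage. The mean rose from 15.7 ± 0.63 to 65.5 ± 1.71 (n = 2 per stage, SD), 4.17 times the E7.5 mean, with a change of 1.99 on the log2 scale (limma adjusted p = 8.1e-11, standard error 0.09). Prrx2 on chromosome 2 (30834972 to 30881251) stood at 2.53 and 1.72 at E7.5, then at 1.21 and 1.78 at E8.5, from 45, 34, 23 and 34 reads. The stages overlapped, and the log2 fold change was -0.33 with a 95% interval from -0.74 to 0.086 (limma adjusted p = 0.172). Single libraries moved this value, to -0.14 without E7.5 replicate 1 and -0.16 without E8.5 replicate 1, or to -0.51 without E7.5 replicate 2, and none of these passed the test.

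Isl1, a LIM homeodomain factor of the second heart field, the hindlimb field and motor neurons, lies on chromosome 13 (116298281 to 116309689). It was read at 13.6 and 10.4 at E7.5, then at 16.6 and 14.1 at E8.5. Both E8.5 values were above both E7.5 values, though E8.5 replicate 2 exceeded E7.5 replicate 1 by little. The mean went from 12.0 ± 2.23 to 15.4 ± 1.79 (n = 2 per stage, SD), a change of 0.34 on the log2 scale (limma adjusted p = 0.0565, standard error 0.14). This value is close to the threshold and depends on single libraries. It passed without E7.5 replicate 1 (0.51, adjusted p = 0.0249) and with edgeR's quasi-likelihood test on the recovered reads (adjusted p = 0.0452), and it was 0.16 without E7.5 replicate 2 (limma adjusted p = 0.403) and 0.22 without E8.5 replicate 1 (limma adjusted p = 0.3331).

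Foxf1, Osr1 and Gata4 carry a forkhead or zinc finger domain. Foxf1, the forkhead factor of the splanchnic mesoderm, the allantois and the posterior streak, lies on chromosome 8 (121084386 to 121088144). Foxf1 was read at 28.6 and 31.4 at E7.5, then 53.0 and 51.2 at E8.5, with no overlap between the stages. The mean rose from 30.0 ± 2.04 to 52.1 ± 1.3 (n = 2 per stage, SD), a change of 0.78 on the log2 scale (limma adjusted p = 2.2e-06, standard error 0.08). Fendrr, a long noncoding RNA of the lateral plate that starts 1276 bases from Foxf1 on the opposite strand, shares no exonic base with it. Fendrr stood at 3.48 and 4.11 at E7.5, then at 16.6 and 17.2 at E8.5, a change of 1.90 on the log2 scale (limma adjusted p = 3.4e-08, standard error 0.14). Both neighbours thus rose, Fendrr to 4.45 times and Foxf1 to 1.74 times their E7.5 means.

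Osr1, the odd-skipped zinc finger factor of the intermediate and lateral plate mesoderm, lies on chromosome 12 (9570116 to 9581500) and had the largest rise of the 10. Its normalised count was 8.94 and 6.64 at E7.5, then 42.3 and 50.02 at E8.5. The mean rose from 7.79 ± 1.62 to 46.2 ± 5.46 (n = 2 per stage, SD), 5.92 times the E7.5 mean, with a change of 2.43 on the log2 scale (limma adjusted p = 9.6e-10, standard error 0.13). Of all genes tested, 56 had a larger log2 fold change. The 3 listed markers of intermediate mesoderm, the other tissue known for Osr1, did not move as a group. Pax2 and Pax8, early kidney factors, rose by 1.37 and 1.14 on the log2 scale, and Lhx1, which also marks other early mesoderm, fell by 1.29. Their summed normalised count was 24.2 and 24.1 at E7.5, then 16.5 and 15.5 at E8.5, most of it Lhx1.

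Gata4, a zinc finger factor of the heart and of visceral and foregut endoderm, lies on chromosome 14 (63198922 to 63271692) and went furthest down. Gata4 was read at 51.0 and 45.0 at E7.5, then 7.29 and 8.20 at E8.5. The mean fell from 48.0 ± 4.28 to 7.75 ± 0.639 (n = 2 per stage, SD), an E7.5 mean 6.20 times that of E8.5, with a change of -2.49 on the log2 scale (limma adjusted p = 1.0e-10, standard error 0.11). Of all genes tested, 91 had a more negative log2 fold change. Markers of visceral endoderm, in which Gata4 is expressed, moved the same way. All 11 on the list fell, with a median of -3.09, where 26.4% of all genes tested fell. Their summed normalised count was 2678 and 2596 at E7.5, then 334 and 340 at E8.5. Apob and Cubn, the genes of a lipoprotein and of an endocytic receptor, had the highest means of the list, with log2 changes of -3.15 and -3.47. Of the markers of heart muscle, 5 reached the minimum and 3 of these fell, beside the same share of all genes. The summed normalised count of the list was 30.8 and 26.5 at E7.5, then 11.1 and 11.7 at E8.5. Tnnt2 (-0.33) and Myl4 (-0.24) did not pass the test. Of the 4 under the minimum, Myh7 had 13 and 10 reads at E7.5, then 19 and 25 at E8.5. The log2 change was -1.94 for the myosin light chain gene Myl7, -1.496 for the cardiac actin gene Actc1 and -0.78 for the troponin gene Tnni1. No gene of these 2 lists was at 0 in all 4 libraries, though the heart gene Nppa had 1 read in E7.5 replicate 1 and none elsewhere. The part of either tissue in the Gata4 value was not tested.

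The summed normalised count of the 10 factors was 253 and 236 at E7.5, then 279 and 284 at E8.5, so that their total changed little beside the changes within it. Hand1 made up 49.3% and 49.4% of this sum at E7.5, then 24.6% and 24.1% at E8.5. Gata4 went from 20.2% and 19.1% to 2.61% and 2.89%. Prrx1 took over a large part, from 6.04% and 6.87% to 23.9% and 22.7%, and so did Osr1, from 3.53% and 2.82% to 15.1% and 17.6%. Foxf1 held 11.3% and 13.3% at E7.5, then 19.0% and 18.0% at E8.5. These shares follow the reads and thus favour long transcripts, so they compare the stages for a gene and not one gene with another.

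**Figure D3:**
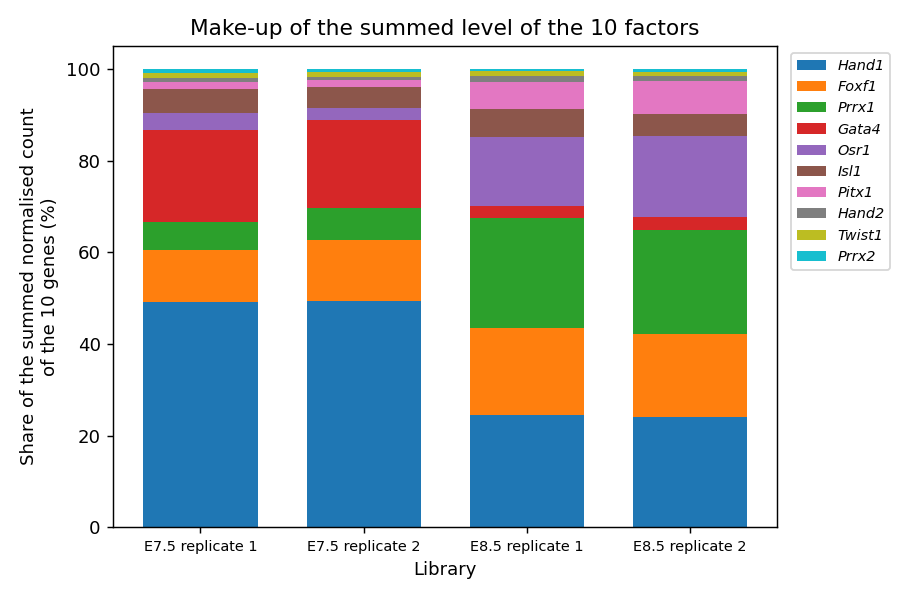
Share (y axis, %) of each of the 10 factors in their summed normalised count, stacked for each library (x axis). Hand1 and Gata4 together fill most of the E7.5 bars, while Prrx1, Osr1 and Foxf1 each hold between 15.1% and 23.9% of the E8.5 bars.

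To order the genes by level within a stage, the normalised count was divided by the length of the merged exons in GENCODE vM21 and is given per kilobase. At E7.5 Hand1 was highest at 60.4 ± 2.91 (SD, n = 2), followed by Foxf1 at 12.4 ± 0.847 and Gata4 at 12.3 ± 1.10, which did not differ beyond their spread. Osr1 (3.77 ± 0.785) and Isl1 (3.04 ± 0.563) came next and overlapped each other. Twist1, Prrx1, Pitx1, Prrx2 and Hand2 lay between 1.57 and 0.859, of which Prrx2 and Hand2 overlapped. Overlap here compares library values only, and counting error was not weighed. Twist1 rested on 45 and 51 reads and Pitx1 on 63 and 69, so their order beside Prrx1 is not settled. At E8.5 Hand1 still led at 34.3 ± 0.122 (SD, n = 2), but Osr1 at 22.3 ± 2.64 and Foxf1 at 21.6 ± 0.537 now stood next, with overlapping libraries. Pitx1 (6.91 ± 0.993), Prrx1 (5.92 ± 0.155), Isl1 (3.88 ± 0.453) and Gata4 (1.98 ± 0.164) followed in separate steps, then Twist1 and Hand2, which overlapped, and Prrx2 at 0.76 ± 0.205. The per kilobase level of Prrx1 is divided by 11066 merged bases, far more than for the others, and would be higher if only a shorter isoform were made.

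Relatives of the 10 factors were read beside them. Of 8 such genes, 5 reached the minimum, 2 rose and 1 fell, with a median log2 fold change of 0.17. Over all genes tested, 25.6% rose and 26.4% fell. Foxf2 rose from 1.52 and 1.27 to 5.14 and 5.27 (1.38, standard error 0.17). Gata6, which acts with Gata4 in heart and endoderm, fell from 8.04 and 7.76 to 4.88 and 4.39 (-0.66, standard error 0.15). Gata5 had a log2 fold change of -0.20 and Twist2 of 0.17, neither past the test. Isl2, Osr2 and Pitx3 were under the minimum, with at most 11 reads in any library.

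The share of reads within a pair of relatives does not depend on the scaling of the library. Gata4 took 86.4% and 85.3% of the reads of Gata4 and Gata6 at E7.5, then 59.9% and 65.1% at E8.5, and the exact 95% binomial intervals of the stages did not meet (at least 83.0% at E7.5, at most 71.1% at E8.5). Foxf1 went from 94.95% and 96.1% of the reads of Foxf1 and Foxf2 to 91.2% and 90.7%. Isl1 held 97.2% and 96.3% of its pair at E7.5, then 99.1% and 97.5% at E8.5. Osr1 went from 95.2% and 92.3% to 99.6% and 99.7%. Prrx1 went from 85.8% and 90.4% of its pair to 98.2% and 97.3%. Hand1 took 98.1% and 98.6% of the Hand pair at E7.5, then 94.4% and 95.6% at E8.5. The intervals of the stages did not meet for Osr1, Prrx1 and Hand1 either, and they overlapped for Foxf1 and Isl1. For Twist1 the share lay between 47.9% and 60.0% in the 4 libraries, with overlapping intervals. The intervals cover counting error only, and lengths differ within pairs, so only the change of a share can be read. For the Hand pair, reads of Hand2os1 over the exonic bases it shares with Hand2 can add to the Hand2 count, and their part was not tested.

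**Figure D4:**
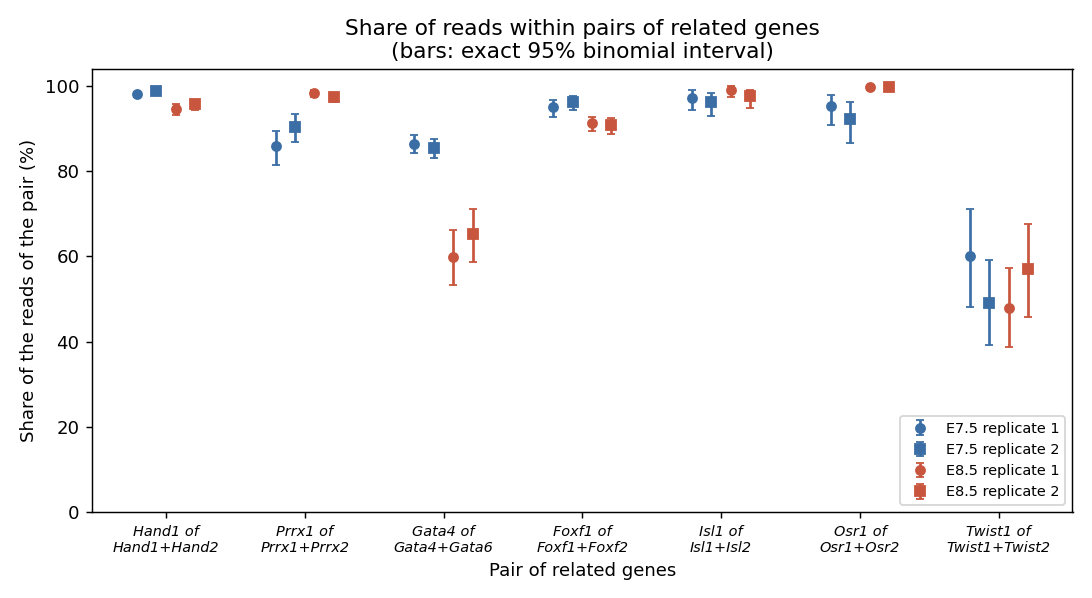
Share (y axis, %) of the reads of a pair of related genes taken by the gene named first (x axis), for each library, with E7.5 in blue, E8.5 in red, circles for replicate 1 and squares for replicate 2; bars are exact 95% binomial intervals. The bars of the stages lie apart for Gata4 with Gata6, Hand1 with Hand2, Prrx1 with Prrx2 and Osr1 with Osr2. They overlap for Twist1 with Twist2, Foxf1 with Foxf2 and Isl1 with Isl2.

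Hand and Twist proteins bind DNA as dimers with E proteins, which Id proteins hold away from DNA, LIM factors such as Isl1 work with Ldb proteins, and Gata4 works with the Zfpm (FOG) cofactors. Of 11 such partners, 10 reached the minimum, 6 rose and 1 fell, with a median log2 fold change of 0.43. Among all genes tested, 25.6% rose and 26.4% fell. The genes of all 3 E proteins rose: Tcf12 from 87.4 and 112 to 179 and 171 (0.81, standard error 0.09), Tcf4 by 0.50 and Tcf3 by 0.42. Id2 rose from 114 and 123 to 232 and 238 (0.98, standard error 0.06), while Id1 had a log2 fold change of 0.072 and did not pass the test. Id3 fell by 0.21 and the low gene Id4 rose by 0.48, and these calls were lost under 6 and 8 of the alternatives. Ldb2 rose by 0.44, a call lost under 4, Ldb1 had 0.083 and Zfpm1 -0.41, neither of these past the test, and Zfpm2 was under the minimum.

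Other genes of the limb fields moved both ways. Of 20 listed, 15 reached the minimum, 7 rose and 5 fell, with a median log2 fold change of 0.24. For this list and the splanchnic list below, the shares over all genes tested were 25.6% higher and 26.4% lower. Tbx4, the T-box factor of the hindlimb field and the allantois, rose from 7.08 and 7.10 to 19.7 and 23.8 (1.49, standard error 0.13). The zinc finger gene Sall1 rose by 1.72 and Emx2 by 1.05. The falls included -1.16 for Pkdcc, a secreted kinase of growing bones, and -0.67 for Meis2 on the log2 scale. Tbx5, the factor of the forelimb field and the heart, was under the minimum with 15, 14, 26 and 8 reads, as were Tbx2, Lhx2, Lhx9 and Shox2. Of 14 genes of the splanchnic layer and of cardiac progenitors, 9 reached the minimum, 2 rose and 5 fell, with a median of -0.60. Tcf21, a factor of visceral mesenchyme, rose by 1.23 and the limb and lung growth factor Fgf10 by 0.95. The 3 largest falls on this scale were -1.45 for Wnt2, a ligand of the early heart and the allantois, -1.18 for Tbx1 and -0.85 for Wt1. Tbx1 had 31 and 32 reads at E7.5, then 3 and 4 at E8.5. Its E7.5 mean was 9.19 times that of E8.5, against 3.42 times for Wnt2. Nkx2-5, a defining factor of heart progenitors, had at most 3 reads in any library.

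Signals that act on or come from the lateral plate were read at both stages. Of 19 genes on the list, 10 rose and 5 fell, with a median log2 fold change of 0.43, where 25.6% of all genes tested rose and 26.4% fell. The lists share some genes, so their counts are not separate. Among those shared, Fgf10 is also on the limb and splanchnic lists, and Wnt2 on the splanchnic list. Shh, the Hedgehog ligand of node and notochord, rose from 6.74 and 4.67 to 21.9 and 24.7 (1.87, standard error 0.15). Its targets Ptch1 and Gli1, named after their values were seen, rose by 1.21 and 1.17. The BMP antagonist Grem1 rose by 1.89, from 6 reads over both E7.5 libraries to 127 over both E8.5 libraries, and Fgf8 by 1.32. Of the BMP antagonists Nog and Chrd, named after their values were seen, Nog rose by 1.12 and Chrd fell by 1.10. Aldh1a2, the enzyme that makes retinoic acid in somitic and lateral mesoderm, fell from 328 and 316 to 34.6 and 33.6 (-3.20, standard error 0.06). Wnt2b fell by 2.17. Bmp4 and Bmp2, also named after their values were seen, had log2 fold changes of 0.43 and -0.67, both past the test.

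The genes closest to a factor over the 4 libraries, by the Euclidean distance of the log2 values, were listed for the 7 factors with a mean normalised count of at least 10. The nearest to Hand1 were Tbca, a tubulin cofactor, and Usmg5, at distances of 0.0639 and 0.14. Those nearest to Pitx1 were Fendrr (0.289) and Scube3 (0.294), and those nearest to Prrx1 were Limch1 (0.249) and the fibrillin gene Fbn2 (0.316). Osr1 had Col4a5 (0.44) and Ltbp1 (0.508), genes of the extracellular matrix. Gata4 had Sord (0.148) and Reep6 (0.438), Foxf1 had Zfp516 (0.123) and Pfn2 (0.125), and Isl1 had Cep131 (0.087) and Stk39 (0.0975). With 4 libraries in 2 stages a short distance says that a gene has a like level and a like step between the stages.

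The labelled tissue was checked against its markers, and markers of neighbouring tissues were summed. The libraries held 19111464 and 19493342 reads at E7.5, then 18488218 and 18515565 at E8.5, and 1 gene, CT010467, held 25.6% of the reads of E7.5 replicate 1 and from 18.5% to 18.9% of the others. Of 10 listed markers of the posterior epiblast, T (Brachyury) was not found under that symbol and was not analysed here. The other 9 were tested, 3 higher and 5 lower at E8.5. Over all genes tested 25.6% were higher and 26.4% lower, shares that also stand beside the counts of the marker lists below. Their summed normalised count was 1082 and 1100 at E7.5, then 1522 and 1502 at E8.5. The caudal homeobox gene Cdx4 rose by 3.57, from 65.1 and 67.8 to 788 and 808, and the sum follows it. Over the 9 markers the log2 fold changes ran from -3.50 to 3.57, with a median of -0.66, and Nkx1-2 fell by 0.72. Markers of the allantois, a tissue that expresses Hand1, Foxf1 and Pitx1, went both ways: 4 rose and 2 fell of 7 tested, and their sum was 823 and 825 at E7.5, then 374 and 393 at E8.5, most of it Phlda2, which fell by 1.78. Postn rose by 3.30 and Itga4 by 1.57. Of 8 blood markers tested 7 rose and Runx1 fell, with a sum that went from 23.7 and 24.3 to 422 and 425, and 8 of the 9 endothelial markers rose, from 64.0 and 59.1 to 233 and 216. Markers of the trophoblast, which expresses Hand1, were low at 11.9 and 13.3 at E7.5, then 4.46 and 4.91 at E8.5, with 2 of 3 tested lower. Definitive endoderm markers fell in 5 of 7, with 1 higher (398 and 389 to 145 and 146) and paraxial mesoderm markers in 5 of 9, with 3 higher (387 and 384 to 305 and 302). Markers of the neural crest, which expresses Twist1, rose in 1 of 4 tested, with a sum of 37.7 and 35.8 and then 45.9 and 42.7, and Foxd3 of this list and Pax1 of the paraxial list had 0 reads in all 4 libraries. The part of any of these tissues in the values of the 10 factors was not tested.

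**Figure D5:**
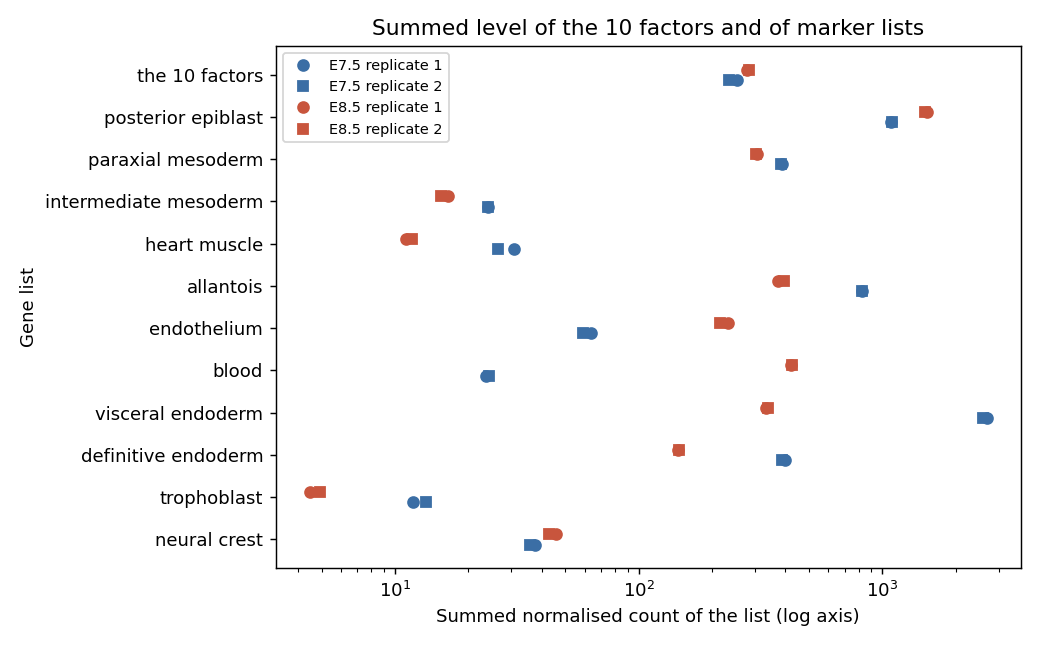
Summed normalised count (x axis, log scale) of the 10 factors and of 11 marker lists (y axis) in each library, with E7.5 in blue, E8.5 in red, circles for replicate 1 and squares for replicate 2. The sum of visceral endoderm markers falls from 2678 and 2596 to 334 and 340, that of blood rises from 23.7 and 24.3 to 422 and 425, and that of the 10 factors lies between 236 and 284.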

How the data were processed

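Pooled tissue of each stage was read in 2 SMART-Seq2 libraries. The authors aligned single-end reads to mm10 with STAR and deposited 1 signal value per gene and library, a read count divided by a library size factor. The paper's text names DESeq2 and the public sample notes name edgeR for that step, and the counting program is not given in the sources used here. Dividing by the step between low values recovered the reads, and 100% of the results were whole to within 0.0001. Symbols were matched by name, and Hand2os1 by identifier. Positions and exon lengths are from GENCODE vM21.

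Values were compared as log2(value + 1) with limma 3.58.1 in R 4.3.3 (lmFit, eBayes with trend, 2 residual and 12.8 prior degrees of freedom). edgeR 4.0.16 and DESeq2 1.42.0 ran on recovered reads as alternatives, and the scripts were tested on simulated data. Other alternatives were pseudocounts of 0.1 and 4, other filters, other scalings, each library left out, a replicate block and a fold threshold in the test. The members and lists were chosen with earlier results of these data known. Named genes were the 10 factors, all relatives, partners and noncoding neighbours, up to 3 rising and 3 falling genes per list, the 2 marker genes of highest mean and the 2 nearest genes, of which some are not reported here. Errors are SD over 2 libraries or standard errors of the fit.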

Additional observations from a re-analysis of the deposited data

How the results depend on the processing

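Of the 10 factors, Pitx1, Prrx1, Osr1 and Gata4 kept their direction and their call under all 15 alternatives. When the test asked for a log2 fold change above 1 (limma's treat), 3 factors were higher and 1 lower, as were 7 and 2 genes of the other lists that are not cell type markers (27 and 16 without this threshold) and 280 and 381 of all genes (3562 and 3671 without it); Hand1, Foxf1 and Hand2 were the factors that lost their call. Isl1 gained a call under 7 alternatives and Hand2 lost its call under 5. With each library left out in turn, between 4 and 6 factors were higher and 2 lower, of the other list genes between 24 and 26 were higher and between 13 and 16 lower, and of all genes between 2678 and 3424 were higher and between 2817 and 3382 lower; the stage left with 1 library is then assumed to vary like the other. Scaling by the sum of assigned reads gave 3843 of all genes higher and 2568 lower. The scaling that leaves out the most abundant gene was chosen after seeing the data. It gave 6 factors higher and 2 lower, beside 3751 of all genes higher and 3465 lower. Small changes that did not pass the test turned sign: Twist2 (0.17) ranged from -0.10 to 0.43 with a library left out and was -0.063 without E7.5 replicate 1 and -0.10 without E8.5 replicate 1, Id1 (0.072) ranged from -0.0060, without E8.5 replicate 2, to 0.15, and Ldb1 (0.083) from -0.017, without E7.5 replicate 2, to 0.18. With the replicate number as a block, 6 factors were higher and 2 lower, Isl1 being the one added (adjusted p = 0.0316), and 3598 and 3660 of all genes; the numbers are not stated to mark a shared litter or day, and same-numbered libraries did not deviate together (correlation -0.0025 across genes). Apart from the treat test, the counts of factors, of other list genes and of all genes stayed within 1.5 times. The cause of these differences was not tested. With a minimum of 5, Hand2, Twist1 and Prrx2 were not tested. Depth limits Hand2, Twist1 and Prrx2 most, at 23 to 77 reads per library.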
